A study of Homo sapiens with 18 samples.

Results

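Oxidative phosphorylation genes were taken as the protein-coding genes whose symbols name subunits of respiratory complexes I to V, namely the NDUFA, NDUFB, NDUFC, NDUFS and NDUFV genes, SDHA to SDHD, the UQCR genes, COX4 to COX8, the ATP5 genes, and the protein-coding genes of mitochondrial DNA. This rule used symbols only and found 102 of the 58825 genes counted, 89 of them nuclear and 13 mitochondrial. By symbol, complex I held 39 nuclear and 7 mitochondrial members, complex II held 4 nuclear members, complex III held 9 and 1, complex IV held 17 and 3, and complex V, the ATP synthase, held 20 and 2. The genes were counted by RNA-seq in OVCAR-3, an established human ovarian carcinoma cell line, after exposure to vehicle (DMSO), to 1 µM i-BET858 or to 1 µM i-BET151 for 4 or 24 h. i-BET858 and i-BET151 inhibit the BET proteins, bromodomain readers of acetylated histones, and the study describes i-BET858 as bivalent. All 6 groups were treated in stripped medium and held 3 replicates each, 18 libraries in all, and no genotype or transgene differed between them. The groups stand for 1 cell line. The study describes the replicates as biological, whilst the labels do not say whether they were separate cultures. P-values measure only the spread between these libraries.

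Oxidative phosphorylation couples electron flow from NADH and succinate to ATP synthesis at the inner mitochondrial membrane. Complexes I, III and IV pump protons, complex II feeds in electrons from succinate, and complex V uses the proton gradient to make ATP. Most subunits are encoded in the nucleus and imported, whereas mitochondrial DNA encodes a small set of membrane subunits that are transcribed as long polycistronic RNAs by a dedicated polymerase, so the complexes other than complex II need both genomes. OVCAR-3, like most lines in culture, also makes ATP by glycolysis.

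The libraries held 27324000 to 46300000 counts. Replicate 3 stood apart in every group, with 17817 to 20642 genes detected, whereas replicates 1 and 2 had 23674 to 24947. The ovarian epithelial markers PAX8, MUC16, EPCAM and KRT7 averaged 454, 221, 409.6 and 787 CPM (counts scaled to the size of each library by TMM) in DMSO at 4 h, whereas, of 9 markers of blood, endothelial and stromal cells, CD3E, CD68 and COL3A1 were at 0, PTPRC, PECAM1 and LUM were at 0.203, 0.126 and 0.00842 CPM, COL1A2 and VWF were at 1.01 and 3.51 CPM, and the collagen gene COL1A1 was at 28.4 CPM. Of the 102 members, 94 passed the filter on low counts at 4 h (81 nuclear, 13 mitochondrial) and 93 at 24 h (80 and 13). The 8 left out at 4 h were the tissue isoforms COX4I2, COX6A2 and COX8C, the gene ATP5MGL, the read-through genes ATP5MF-PTCD1 and NDUFC2-KCTD14, and the subunits NDUFV2 and NDUFA7. Of 138 genes wholly covered by exons of a gene on the opposite strand above 50 CPM, 129 had no count in any library, as happens where reads are counted without strand and those over 2 genes are dropped. Several subunits that the complexes need were close to 0, among them the complex II flavoprotein SDHA at 1.15 CPM, NDUFS7 at 0.660 CPM, NDUFV2 at 0.121 CPM and NDUFB8 at 0.291 CPM in DMSO at 4 h, with 21.7%, 51.4%, 28.4% and 48.5% of their exon bases shared with another gene. Nothing is read from their levels. Among members described with values, COX6A2 (38.3%), COX6B2 (29.1%), SDHD (11.4%), ATP5MC2 (7.15%), MT-ATP6 (6.90%), NDUFC1 (31.5%), ATP5PD (19.1%), NDUFA2 (12.1%), NDUFS1 (11.6%), UQCRQ (11.5%), UQCR11 (11%), NDUFA9 (10.6%) and ATP5MF (8.64%) shared exon bases in part, so their counts may leave out some reads and their levels may be too low. Both drugs are compared with the same DMSO libraries at each time, so their comparisons are not independent.

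In DMSO at 4 h MT-ND3, MT-CO1, MT-CO2 and MT-CO3 averaged 948 ± 208, 873 ± 350.04, 819.6 ± 217 and 704 ± 279.8 CPM per kilobase (SD, n = 3), taking the exonic length of each gene's Ensembl canonical transcript (GENCODE 44). Among nuclear members, the catalytic ATP synthase β subunit ATP5F1B had 602 ± 23.7 CPM per kilobase on the same scale and the complex IV subunits COX6B1 and COX4I1 had 565 ± 24.3 and 463 ± 35.2. These levels depend on the transcript chosen, so no order among nuclear members is read from them. The means ± SD of these 4 mitochondrial genes overlapped, so their order is not resolved. Those of MT-CO1, MT-CO2 and MT-CO3 also reached that of ATP5F1B. Whether reads of the mitochondrial genes were dropped for matching other parts of the genome was not tested. Such a loss would make their levels too low, so no ranking of mitochondrial against nuclear members is read from these values.

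The 13 mitochondrial genes took 0.362%, 0.638% and 0.742% of all counts in the DMSO libraries at 4 h, 0.688%, 0.656% and 0.944% in the i-BET858 libraries, and 0.690%, 0.890% and 0.934% in the i-BET151 libraries. DMSO replicate 1 was the lowest of the 9, and the groups overlapped. At 24 h the DMSO libraries held 0.556%, 0.538% and 0.524%, the i-BET858 libraries 0.547%, 0.591% and 0.709%, and the i-BET151 libraries 0.586%, 0.570% and 0.669%. The 24 h i-BET151 libraries all lay above DMSO, whilst 1 i-BET858 library lay among them. As a sum, the counts of the 89 nuclear genes went from the upper to the lower side of DMSO. Their share averaged 0.989 ± 0.0350% in DMSO, 1.09 ± 0.0840% under i-BET858 and 1.08 ± 0.0450% under i-BET151 at 4 h (SD, n = 3), and 1.13 ± 0.0966%, 0.902 ± 0.0505% and 0.938 ± 0.0233% at 24 h. At both times the nuclear shares of all 3 libraries of each drug lay on 1 side of the 3 DMSO libraries, above at 4 h and below at 24 h. Counted gene by gene, every i-BET858 library lay above every DMSO library at 4 h in 37 nuclear members and below in 4, where 21% and 23.5% of all genes did so, and with i-BET151 in 26 and 3, against 17.3% and 19.3%. At 24 h the counts were 1 above and 36 below with i-BET858, against 26.4% and 28.3%, and 0 and 37 with i-BET151, against 23.9% and 24.9%. Of the 13 mitochondrial genes 3 and 4 lay wholly above DMSO at 4 h and 5 and 6 at 24 h, and none below. As these are shares of a library, less RNA of the other genes per cell and more RNA of the members cannot be told apart.

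**Figure D1:**
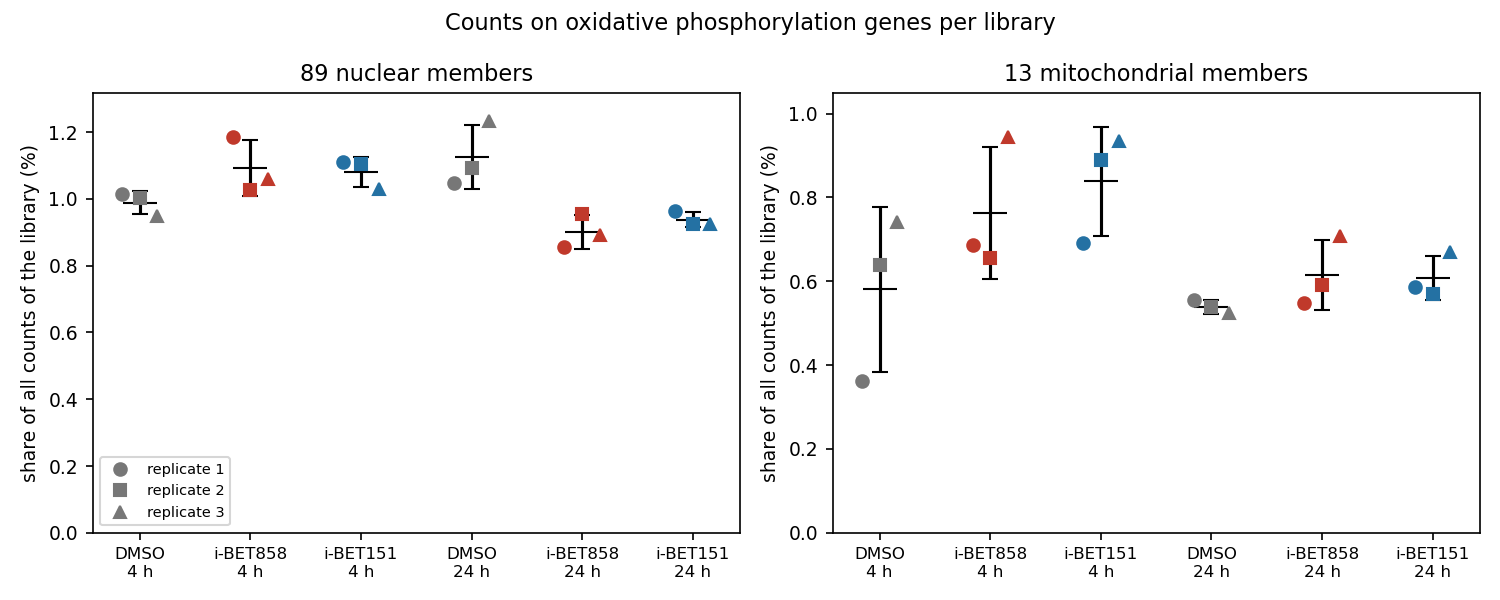
Share of all counts of each library (%) that fell on the 89 nuclear (left) and the 13 mitochondrial (right) oxidative phosphorylation genes; points are libraries, shaped by replicate, bars give the mean ± SD of 3. The nuclear share lay above DMSO with either drug at 4 h and below it at 24 h, whilst DMSO replicate 1 at 4 h had the lowest mitochondrial share, 0.362%.

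The first comparison asked how the nuclear genes responded to 4 h of i-BET858. A gene was called where edgeR's quasi-likelihood test, fitted on all genes, gave a Benjamini-Hochberg adjusted p under 0.05. Of 81 nuclear members tested, 26 were called higher and 3 lower, against a background of 14.5% of all 17192 genes tested called higher and 16.3% lower. At a fold of 2, which no called member reached at 4 h, the shares of all genes were 7.08% higher and 7% lower for i-BET858 and 4.12% and 2.97% for i-BET151. The median log2 fold change of the nuclear members was 0.31, against 0.02 over all genes. By complex, 10 of 36 nuclear members of complex I were called higher and 1 lower, 0 of 4 of complex II were called, 3 of 9 of complex III were higher and 2 lower, 6 of 14 of complex IV were higher, and 7 of 18 of complex V were higher. With the counts scaled to total library size, under which the median over all genes was -0.14, 4 nuclear members were called higher and 5 lower, where 10.2% and 21.6% of all genes were. With replicate number as a block, 46 were called higher and 5 lower, where 22.3% and 23% of all genes were, and with replicates 1 and 2 only 31 and 4, where 20.3% and 21.5% were. Leaving out each library in turn gave 12 to 32 nuclear calls in all. Of all genes 10.4% to 16% were then higher and 12.5% to 17.7% lower. The summed level of the 7 epithelial markers was 7912 to 9475 CPM in the DMSO libraries at 4 h and 10619 to 11276 CPM in those of i-BET858, and that of the 9 markers of other cell types was 24.6 to 45.5 and 32.5 to 50.4 CPM, and their part in the result was not tested.

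Among the rises, NDUFA2, an accessory subunit of complex I, went from 3.72, 4.27 and 4.88 CPM in the DMSO libraries to 8.17, 7.78 and 7.70 CPM, log2 fold change 0.88 ± 0.22 (SE), edgeR adjusted p = 0.0114. ATP5MF, a membrane subunit of the ATP synthase, went from 14.6, 19.98 and 18.6 to 30.3, 25.7 and 25.8 CPM, log2 fold change 0.62 ± 0.16 (SE), edgeR adjusted p = 0.0111. The groups did not overlap in either gene. The catalytic subunit ATP5F1B lay at 1099, 1016 and 1062 CPM in DMSO and at 1492, 1487 and 1522 CPM with i-BET858, log2 fold change 0.50 ± 0.08 (SE), edgeR adjusted p = 0.000459, the rise with the smallest adjusted p among the members. ATP5IF1, the natural inhibitor of the ATP synthase, went from 51.7, 47.8 and 50.6 to 82.4, 62.4 and 62.8 CPM, log2 fold change 0.47 ± 0.13 (SE), edgeR adjusted p = 0.0203. NDUFA4, named for complex I but a subunit of complex IV, rose by 0.48 (log2), and the complex IV subunits COX6B1, COX7A2 and COX4I1 by 0.45, 0.43 and 0.37 on the log2 scale. ATP5PD of the ATP synthase stalk and UQCRQ of complex III rose by 0.56 and 0.56. UQCRHL rose by 0.63, but it is a near-identical copy of the complex III hinge gene UQCRH, which rose by 0.39, so reads may be shared and its own level is uncertain. Under total library size the rises of ATP5IF1, ATP5MF, ATP5PD, UQCRQ, UQCRHL, COX4I1 and COX7A2 were not called.

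The 3 falls were in complexes I and III. UQCR11, a small subunit of complex III, went from 8.74, 10.8 and 8.04 CPM to 6.06, 4.42 and 5.69 CPM, log2 fold change -0.77 ± 0.22 (SE), edgeR adjusted p = 0.022. NDUFS1, the large iron-sulphur subunit of complex I, went from 140.5, 129 and 120.3 to 93.2, 84.6 and 96.4 CPM, log2 fold change -0.51 ± 0.12 (SE), edgeR adjusted p = 0.00645. UQCRFS1, the Rieske iron-sulphur protein of complex III, went from 95.1, 77.9 and 67.8 to 65.2, 52.5 and 57.2 CPM, log2 fold change -0.46 ± 0.15 (SE), edgeR adjusted p = 0.0383. In each of the 3 genes every i-BET858 library lay below every DMSO library. The calls of NDUFA2, ATP5MF, ATP5IF1, ATP5PD, UQCRQ, UQCRHL and UQCRFS1 were lost without DMSO replicate 1 and those of COX4I1 and UQCR11 without DMSO replicate 2, among other libraries, whereas those of NDUFS1, ATP5F1B, NDUFA4, COX6B1 and COX7A2 held without each library in turn.

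With i-BET151 at 4 h only ATP5MF, NDUFV3 and ATP5F1B of the 81 nuclear members were called, all higher, where 7.81% of all genes were called higher and 8.43% lower. ATP5MF stood at 26.4, 27.4 and 23 CPM and ATP5F1B at 1310.3, 1304 and 1282 CPM, against the DMSO values above, and NDUFV3, an accessory subunit of complex I, at 90.1, 105 and 90.6 against 68.1, 70.6 and 73.6 CPM in DMSO. Their log2 fold changes were 0.53 (edgeR adjusted p = 0.0416), 0.29 (0.0213) and 0.43 (0.0263). The median of the nuclear members was 0.20, and 68 of 81 were above 0. Each of the 3 calls was lost without DMSO replicate 2 or 3 or without i-BET151 replicate 1 or 2. With the replicate block the count was 26 higher and 3 lower, where 15.6% and 17% of all genes were, and with replicates 1 and 2 only 5 and 3, where 12.4% and 13.5% were.

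The mitochondrial genes had larger medians than the nuclear members, a difference that was not tested. At 4 h all 13 had a positive log2 fold change with either drug, with a median of 0.57 for i-BET858 and 0.60 for i-BET151, and MT-ND2 and MT-CO2 were called, with each drug. These 2 of 13 are close to the 14.5% of all genes called higher with i-BET858, and 7.81% were with i-BET151. MT-ND2, a membrane subunit of complex I, lay at 463, 692 and 589.5 CPM in DMSO, 868, 848 and 875 CPM with i-BET858 (log2 fold change 0.57 ± 0.14 (SE), edgeR adjusted p = 0.00983) and 825, 1019 and 809.9 CPM with i-BET151 (log2 fold change 0.61 ± 0.14 (SE), edgeR adjusted p = 0.0137). MT-CO2, a copper-bearing subunit of complex IV, lay at 389.6, 657 and 635 CPM, 766, 789 and 921 CPM (log2 fold change 0.56 ± 0.18 (SE), edgeR adjusted p = 0.0362) and 727, 942 and 883 CPM (log2 fold change 0.60 ± 0.18 (SE), edgeR adjusted p = 0.0433). In both genes all libraries of both drugs lay above all DMSO libraries. The other mitochondrial genes had similar sizes without a call. MT-CYB, the cytochrome b of complex III, had 0.56 and 0.63 for i-BET858 and i-BET151, MT-ATP6 of complex V had 0.63 and 0.64, and MT-CO1, the catalytic subunit of complex IV, had 0.53 and 0.54. MT-ND6, the only one of these genes on the light strand, had 0.61 and 0.54. As reads seem to have been counted without strand, its counts may hold RNA of the other strand. No change of the light-strand transcript is read from them.

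These 4 h values rested in part on 1 control library. Within replicate 1 the median difference of the 13 genes from DMSO was 1.08 for i-BET858 and 0.98 for i-BET151, against 0.22 and 0.56 within replicate 2 and 0.54 and 0.41 within replicate 3 (log2). MT-CO1 stood at 795, 1369.6 and 1874 CPM in the 3 DMSO libraries. Without DMSO replicate 1, 1 mitochondrial gene was called with either drug, where 10.6% of all genes were called higher for i-BET858 and 5.08% for i-BET151. Under the replicate block 12 of 13 were called higher with either drug, where 22.3% and 15.6% of all genes were. The call of MT-CO2 was lost with either drug without that library, and the call of MT-ND2 with i-BET151 was lost without i-BET151 replicate 2. Under total library size none was called with i-BET858 and 1 with i-BET151.

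**Figure D2:**
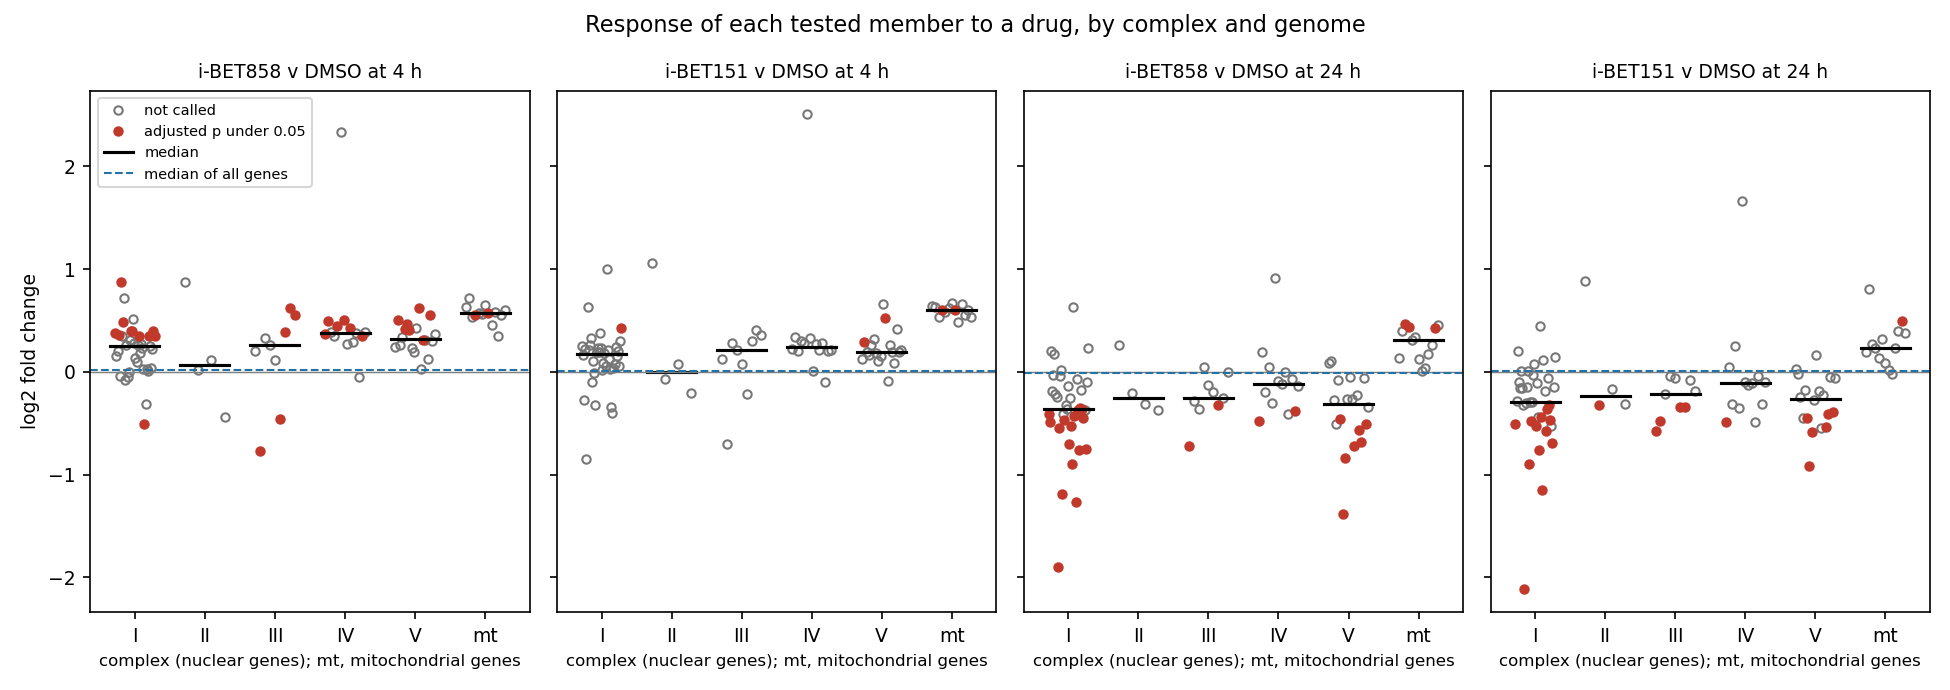
Log2 fold change against DMSO of each tested nuclear member by complex, and of the 13 mitochondrial members (mt), in the 4 drug comparisons; filled points are called at an adjusted p under 0.05, black bars are medians and the dashed line is the median of all genes. The nuclear medians lay at or above 0 at 4 h and below 0 at 24 h, whereas the mitochondrial medians were 0.57, 0.60, 0.31 and 0.24.

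At 24 h the nuclear genes lay, by their medians, on the other side of DMSO. With i-BET858, 28 of 80 nuclear members were called lower and 0 higher, where 21.3% of all genes were called lower and 20.5% higher. With i-BET151, 25 of 80 were called lower and 0 higher, against 16.6% lower and 17.2% higher over all genes. The medians were -0.28 and -0.26, against -0.01 and 0.00 over all genes. A fold of 2 was reached by 4 of the falls with i-BET858, where 11.2% of all genes were lower and 7.65% higher by that much, and by 2 of those with i-BET151, where 8.09% were lower and 5.59% higher. By symbol, complex I had 17 of 36 nuclear members lower with i-BET858 and 13 of 36 with i-BET151, complex V 7 and 6 of 18, complex III 2 and 4 of 9, complex IV 2 and 1 of 13, and complex II 0 and 1 of 4. With NDUFA4 and its relative NDUFA4L2 counted in complex IV, complex I had 16 and 12 of 34 and complex IV 3 and 2 of 15. Epithelial markers moved in the same libraries, with KRT18, KRT7 and KRT8 called lower with both drugs among 7 markers, and a summed level over the 7 of 8687 to 10041 CPM in DMSO, 6100.4 to 6672 CPM with i-BET858 and 6361 to 6949 CPM with i-BET151. Of 9 markers of other cell types the sum was 31.6 to 41.3, 23.04 to 34.5 and 24.2 to 32.4 CPM. The part of either in the result was not tested. DMSO replicate 3 had the highest nuclear share of the 18 libraries, 1.23%. Without it the medians were -0.16 and -0.12, and 22 members were called lower and 2 higher with i-BET858, where 18.9% and 20.2% of all genes were, and 17 lower with i-BET151, where 14.3% were. With replicates 1 and 2 only, 37 were lower and 6 higher under i-BET858, where 31% and 29.8% of all genes were, and 31 and 2 under i-BET151, where 28.1% and 26% were.

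The 3 genes of the ATP synthase c-ring were not called alike. ATP5MC1, ATP5MC2 and ATP5MC3 encode the same mature ring subunit behind different import peptides, and lie on chromosomes 17, 12 and 2. ATP5MC1 stood at 123, 135 and 212 CPM in DMSO, 54.2, 59.3 and 67.3 CPM with i-BET858 (log2 fold change -1.38 ± 0.21 (SE), edgeR adjusted p = 0.00037) and 80.1, 68.9 and 101 CPM with i-BET151 (log2 fold change -0.91 ± 0.21 (SE), edgeR adjusted p = 0.00603). ATP5MC2 stood at 195, 198 and 263 CPM in DMSO, 109, 127 and 131 CPM under i-BET858 and 141, 134 and 163 CPM under i-BET151, with log2 fold changes of -0.84 and -0.58 (edgeR adjusted p = 0.000706 and 0.00793). ATP5MC3 stood at 215, 222 and 369 CPM in DMSO, 195, 222 and 254 CPM under i-BET858 and 207, 203 and 255 CPM under i-BET151 and was not called, at -0.27 and -0.28. In ATP5MC1 and ATP5MC2 no drug library reached a DMSO library, and in ATP5MC3 the groups overlapped. At 4 h ATP5MC1 had instead been higher with i-BET858, at 145, 136 and 164 against 106, 111 and 119 CPM in DMSO (log2 fold change 0.41 ± 0.12 (SE), edgeR adjusted p = 0.0197). Whether the 3 genes differ from each other in response was not tested. The call of ATP5MC1 at 4 h was lost without DMSO replicate 1, DMSO replicate 2 or i-BET858 replicate 3, and under total library size.

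**Figure D3:**
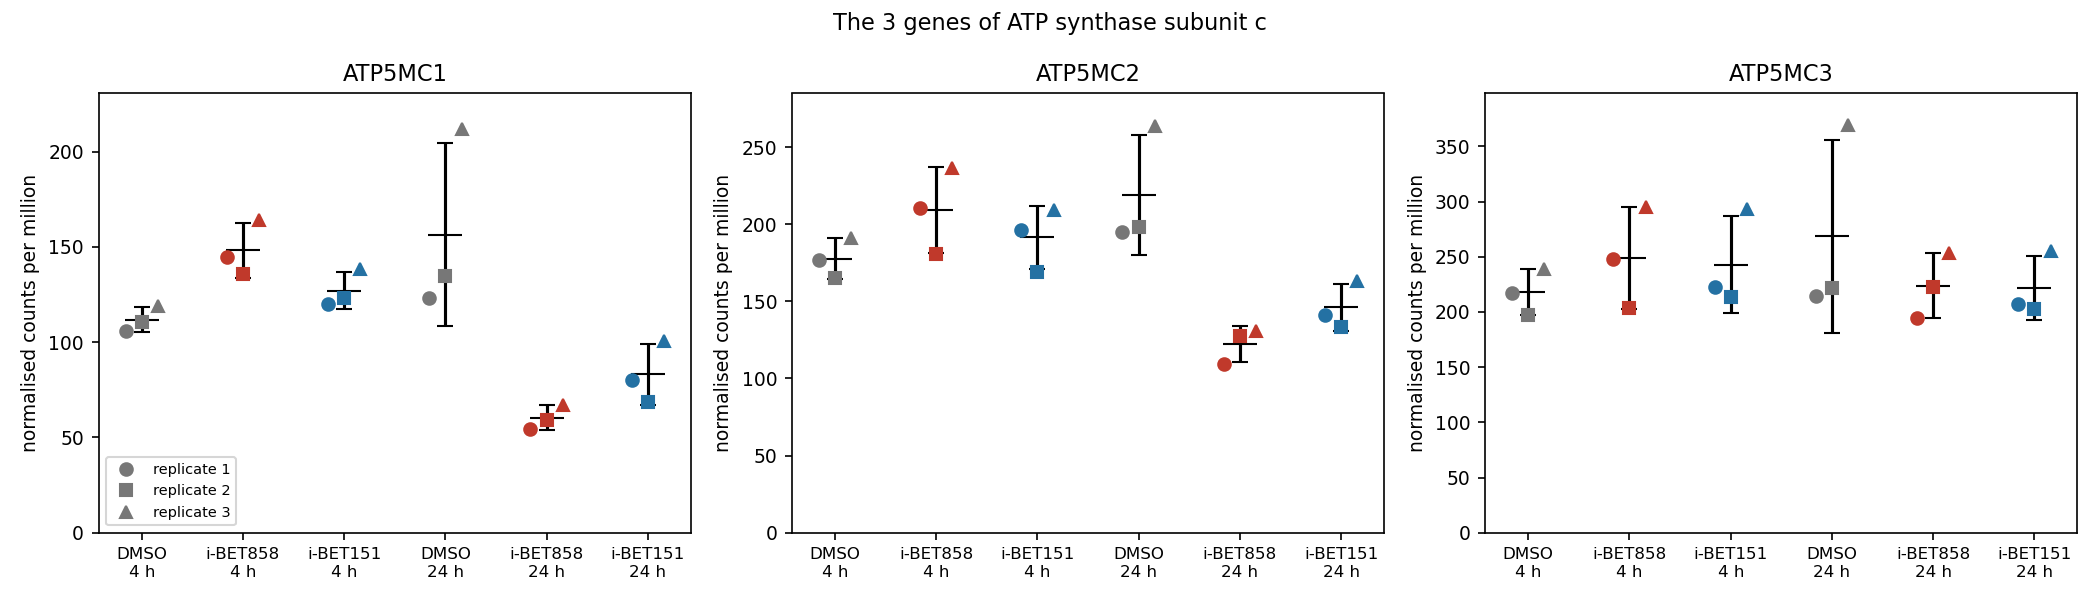
Normalised CPM of ATP5MC1, ATP5MC2 and ATP5MC3 in the 18 libraries, shaped by replicate, with the mean ± SD of 3 for each group. ATP5MC1 and ATP5MC2 lay below every DMSO library with either drug at 24 h, whilst ATP5MC3 overlapped.

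The falls in genes named for complex I were spread over its parts. NDUFC1, an accessory subunit of the membrane arm, went from 44.9, 52.2 and 56.6 CPM in DMSO to 21.6, 22.4 and 19.9 CPM with i-BET858 and 24.7, 23.8 and 20.6 CPM with i-BET151 (log2 fold change -1.26 ± 0.12 (SE), edgeR adjusted p = 2.19e-05, and log2 fold change -1.15 ± 0.12 (SE), edgeR adjusted p = 6.9e-05). NDUFB7, another accessory subunit, went from 75.7, 83.4 and 114 CPM in DMSO to 41.2, 47.98 and 57.2 CPM under i-BET858 and 51.4, 49.5 and 60.5 CPM under i-BET151 (-0.90 and -0.76). The iron-sulphur core subunit NDUFS8 was at -0.75 with i-BET858 and -0.69 with i-BET151, both called. By symbol, 4 of 6 tested nuclear core subunits and 13 of 30 accessory subunits were lower with i-BET858, where 21.3% of all genes were. NDUFA9 fell by 1.18 and 0.90, from a level of only 4.54, 5.96 and 5.86 CPM, and its call with i-BET151 was lost without DMSO replicate 2 or 3 or i-BET151 replicate 3. NDUFA4L2 fell too, a paralogue of NDUFA4, itself of complex IV, known as a hypoxia-induced gene, from 3.70, 2.58 and 3.75 CPM to 0.763, 0.869 and 1.06 CPM with i-BET858 and 1.07, 0.614 and 0.628 CPM with i-BET151 (log2 fold change -1.90 ± 0.36 (SE), edgeR adjusted p = 0.00169, and log2 fold change -2.11 ± 0.37 (SE), edgeR adjusted p = 0.00133). NDUFA4 itself was at -0.25 and -0.32 and was not called.

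Of the remaining complexes, COX4I1, the nuclear-encoded subunit that starts complex IV assembly, went from 368, 383 and 513 CPM in DMSO to 275, 321 and 313 CPM under i-BET858 and 309.5, 282 and 310.1 CPM under i-BET151 (-0.48 and -0.49, both called). The inhibitor ATP5IF1 went from 56.9, 59.9 and 60.7 CPM in DMSO to 43.02, 46.6 and 39.5 CPM under i-BET858 and 46.5, 41.2 and 42.1 CPM under i-BET151 (-0.46 and -0.45, both called). The catalytic subunit ATP5F1B, which had risen at 4 h, was not called, at 0.10 with i-BET858 and -0.02 with i-BET151. In complex II, SDHB was called lower with i-BET151 alone (log2 fold change -0.32 ± 0.10 (SE), edgeR adjusted p = 0.0358), from 65.9, 69.4 and 73.8 to 59.4, 58.5 and 49.6 CPM, and with i-BET858 it was at -0.21 (adjusted p = 0.14, edgeR). SDHC and SDHD, the membrane anchors, were at -0.31 and -0.37 with i-BET858 and at -0.16 and -0.31 with i-BET151, not called, whilst SDHA was too sparsely counted to read. UQCR11 and UQCRFS1 were called lower with i-BET151 (-0.47 and -0.34) and not with i-BET858 (-0.28 and -0.20), a difference between the drugs that was not itself called. The SDHB, UQCR11 and UQCRFS1 calls were each lost without any of several single libraries, and those of COX4I1 without i-BET858 replicate 1 or i-BET151 replicate 2.

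Of the isoforms best known from other tissues, COX4I2 and COX8C held 4 and 0 counts over all 18 libraries and COX7A1 averaged 0.223 CPM in DMSO at 4 h. COX6A2 held 0 counts and COX6B2 averaged 0.0707 CPM, but nothing is read from these values, as both genes share exon bases with another gene. The levels of their partners were 353, 163 and 275 CPM for COX4I1, COX7A2 and COX6B1. COX7B2, a form of COX7B best known from testis, was at 18.2 CPM, and was not called in any comparison.

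By their medians the mitochondrial genes stayed on the upper side of DMSO at 24 h. With i-BET858 all 13 had a positive log2 fold change, with a median of 0.31, and MT-ND5, MT-CO1 and MT-CO2 were called, a share near the 20.5% of all genes called higher. With i-BET151, 12 of 13 were positive, with a median of 0.24, and MT-ND5 was called, a share below the 17.2% of all genes. Under the replicate block 6 and 4 of 13 were called higher for i-BET858 and i-BET151, where 25.7% and 23.2% of all genes were. The share for i-BET858 then lay above that of all genes and that for i-BET151 near it. Within replicates 1, 2 and 3 the median difference from DMSO was 0.05, 0.23 and 0.49 for i-BET858, with 8, 11 and 13 genes above 0, and 0.18, 0.17 and 0.42 for i-BET151, with 13, 11 and 12. MT-ND5, the proton-pumping subunit at the far end of complex I, lay at 242, 212 and 198 CPM in DMSO, 261, 278 and 338 CPM with i-BET858 (log2 fold change 0.43 ± 0.14 (SE), edgeR adjusted p = 0.0317) and 283, 271 and 363 CPM with i-BET151 (log2 fold change 0.49 ± 0.14 (SE), edgeR adjusted p = 0.0209). MT-CO2 lay at 565, 528 and 517 CPM in DMSO, 672, 719 and 789 CPM under i-BET858 and 652, 632 and 614 CPM under i-BET151 (0.44, called, and 0.24, not called). In both genes every drug library lay above every DMSO library. MT-ND1 and MT-ND2 were at 0.13 and 0.01 with i-BET858 and at 0.09 and 0.02 with i-BET151. The calls of MT-ND5 with both drugs were lost without DMSO replicate 2, DMSO replicate 3 or the drug's replicate 3, and under the fit of all 18 libraries, and that of MT-CO1 without DMSO replicate 1, DMSO replicate 2, i-BET858 replicate 3 or i-BET151 replicate 1. MT-CO2 kept its call with i-BET858 without each library in turn.

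Nuclear and mitochondrial genes thus lay on the same side of DMSO at 4 h and on opposite sides at 24 h by their medians, a difference between the genomes that was not tested. A test of the drug effect at 24 h against that at 4 h called 38 of 82 nuclear members lower and 0 higher for i-BET858, against 12.6% of 18154 genes lower and 14.6% higher, and 23 lower and 0 higher for i-BET151, against 6.82% and 6.99%. The median change of the nuclear members was -0.54 for i-BET858 and -0.44 for i-BET151. That of the mitochondrial genes was also below 0, at -0.22 and -0.34. The change exceeded a fold of 2 in 6 and 3 members, against 8.21% lower and 6.87% higher and 4.2% and 2.5% over all genes. Leaving out each library in turn gave 29 to 39 nuclear calls for i-BET858 and 11 to 27 for i-BET151. Of all genes 9.97% to 13.3% were then lower for i-BET858 and 4.42% to 7.3% for i-BET151. The replicate block gave 38 for i-BET151, where 13.1% of all genes were lower and 15.2% higher. ATP5MC1 changed by -1.74 and -1.07, NDUFC1 by -1.46 and -1.26, NDUFA4L2 by -2.58 and -2.41, and NDUFB7 by -1.20 and -0.80. With i-BET858, 9 nuclear members were called higher at 4 h and lower at 24 h, namely ATP5IF1, ATP5MC1, COX4I1, COX7C, NDUFA1, NDUFB10, NDUFB7, NDUFS5 and UQCRH, against 0.875% of the 16570 genes tested at both times. For i-BET151 0 members were called in that way, against 0.133%. By sign alone, 59 of 80 for i-BET858 and 56 of 80 for i-BET151 were above 0 at 4 h and below 0 at 24 h, against 20.3% and 18.6% of all genes. Of the 9, the 4 h calls of ATP5IF1, ATP5MC1, COX4I1, NDUFB7 and UQCRH were lost under total library size and without single libraries. The 24 h call of UQCRH with i-BET858 was lost in 8 alternative settings, and that of COX4I1 in 1. The other 4 were not run under each alternative. Complex V held 11 of its 18 tested nuclear members among the 38, complex I 18 of 37, complex III 4 of 9, complex IV 5 of 14 and complex II 0 of 4. No mitochondrial gene was called for either drug by edgeR. At an unadjusted p under 0.05 there was 1 for each drug, where 37.6% and 27.4% of all genes were. Under the replicate block there were 4 lower for i-BET858, where 18.5% of all genes were lower, and 3 lower for i-BET151, against 13.1%.

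The DMSO libraries enter this change. DMSO at 24 h against DMSO at 4 h, a comparison added after the data were seen, called 0 of 82 nuclear and 0 of 13 mitochondrial members by edgeR, where 7 of 18154 genes (0.0386%) were lower and 0 higher, and at an unadjusted p under 0.05 it gave 4 nuclear and 0 mitochondrial members, below the 9.17% of all genes. Their medians were 0.14 and -0.14, with 71 of 82 nuclear members and 1 of 13 mitochondrial members above 0. The nuclear shares of the 3 DMSO libraries at 24 h all lay above those of the 3 at 4 h. For i-BET858 the same comparison called 40 nuclear members lower and 2 higher, against 19.3% and 20.3% of all genes, and 3 mitochondrial genes lower. For i-BET151 it called 26 nuclear and 4 mitochondrial genes lower and none higher, against 13.6% lower and 12.8% higher. With either drug 0 of 13 mitochondrial genes were above 0. Their medians were -0.46 for i-BET858 and -0.51 for i-BET151, and those of the nuclear members were -0.40 and -0.29. The time point and any batch of the 4 h and 24 h libraries cannot be told apart.

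**Figure D4:**
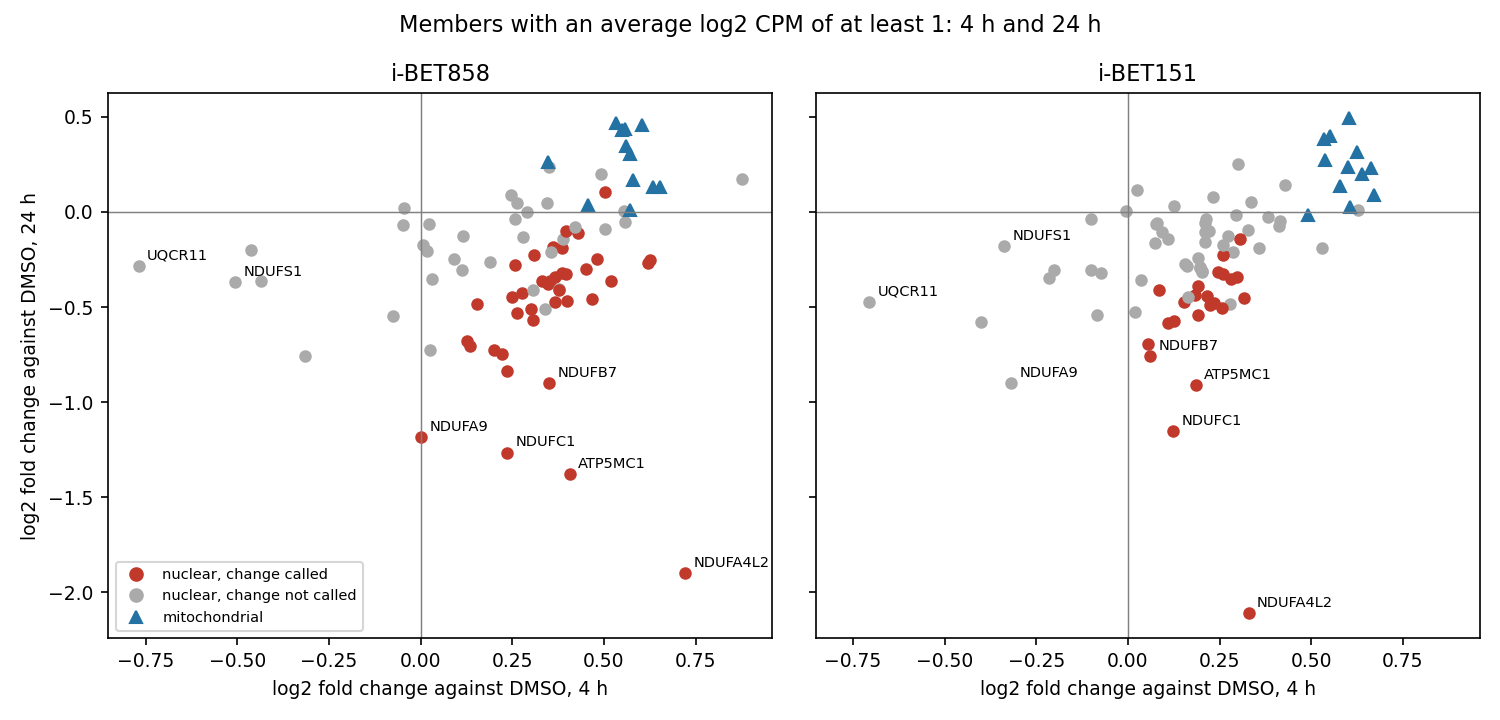
Log2 fold change against DMSO at 4 h (x axis) and 24 h (y axis) for members whose average log2 CPM was 1 or more, for i-BET858 (left) and i-BET151 (right); red nuclear members had a called change between the times, grey ones had not, and triangles are mitochondrial genes. Most nuclear members lay in the lower right part, with ATP5MC1 at 0.41 and -1.38 for i-BET858, and the mitochondrial genes lay above them.

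The direct comparison of the inhibitors at equal dose and time found no member called by edgeR among 94 tested at 4 h and 93 at 24 h, where 0.971% and 0.21% of all genes were called. At an unadjusted p under 0.05 there were 3 members at 4 h and 3 at 24 h, below the 11.9% and 11.4% of all genes. With the replicate block, ATP5F1B was called higher with i-BET858 at 4 h, by 0.21 (95% interval 0.09 to 0.33, adjusted p = 0.0293), and ATP5MC1 lower at 24 h, by -0.45 (-0.69 to -0.21, adjusted p = 0.0384). These single calls are a share below that of all genes under the block, 4.38% higher and 5.25% lower at 4 h and 1.85% and 2.52% at 24 h. With replicates 1 and 2 only, ATP5MC1 (-0.37, adjusted p = 0.0294) and NDUFA5 (-0.31, adjusted p = 0.0269) were called lower at 24 h, where 3.36% of all genes were. The 95% interval of the difference lay within a log2 difference of 1 in either direction for 72 of 81 nuclear members at 4 h and 73 of 80 at 24 h, and within 0.5 for 53 at each time, and the data do not bound the difference that closely for the others. For the mitochondrial genes it lay within 0.5 for 3 of 13 at 4 h and 8 of 13 at 24 h.

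Promoter sequence was then set beside these groups. RefSeq windows (GRCh38.p14) were found for 72 of the 89 nuclear members, and the 250 bases before the start were searched on both strands. The motif of NRF1, a factor known to bind respiratory genes (GCGC on either side of an A and any base), stood in 15 of 72 windows (20.8%), against 7.77% of 15448 protein-coding promoters. The ETS motif CCGGAAG, bound by GABPA among other factors, stood in 17 (23.6%) against 12.0%. The GC box (GGGCGG) stood in 55.6% of the windows against 56.7%, the CCAAT box in 33.3% against 34.8%, and the TATA box (TATAAA) in 9.72% against 9.21%. Of the members that fell with i-BET858 at 4 h, UQCR11 and UQCRFS1 held the NRF1 motif, and UQCR11 and NDUFS1 the ETS motif, that of NDUFS1 outside the bases printed below. Over all tested members with a window, 2 of 14 with the NRF1 motif were called higher and 2 lower at 4 h with i-BET858, against 19 and 1 of 53 without it, and at 24 h 2 of 14 were called lower against 23 of 53. For the ETS motif, 6 of 17 were higher and 2 lower at 4 h, against 15 and 1 of 50, and 7 of 17 were lower at 24 h, against 18 of 50. Over all genes 14.5% were higher and 16.3% lower at 4 h and 21.3% lower at 24 h, and the i-BET858 counts with the NRF1 motif lie near or below these shares. With i-BET151 at 24 h the split by NRF1 motif was smaller, with 4 of 14 lower against 18 of 53 without it. For the ETS motif 8 of 17 were lower against 14 of 50, where 16.6% of all genes were. These counts are descriptions of letters in a window, not of bound sites. The windows below, 5′ to 3′ on the gene's own strand and limited to bases upstream of the RefSeq start that lie in no annotated exon, are those of the 3 members that fell at 4 h, of 2 genes of the c-ring and of 3 other members that fell at 24 h, with motif matches in capitals (NRF1, ETS or CCAAT).
NDUFS1 (chr2:206159510-206159584, - strand): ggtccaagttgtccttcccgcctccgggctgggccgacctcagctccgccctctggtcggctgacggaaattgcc
UQCR11 (chr19:1605474-1605712, - strand): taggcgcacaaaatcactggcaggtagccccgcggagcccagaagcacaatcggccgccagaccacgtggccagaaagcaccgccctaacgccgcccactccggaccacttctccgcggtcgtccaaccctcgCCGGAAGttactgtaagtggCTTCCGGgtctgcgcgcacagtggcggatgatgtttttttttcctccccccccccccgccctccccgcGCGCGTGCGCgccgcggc
UQCRFS1 (chr19:29213152-29213234, - strand): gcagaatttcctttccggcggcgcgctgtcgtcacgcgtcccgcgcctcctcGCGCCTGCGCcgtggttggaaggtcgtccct
ATP5MC1 (chr17:48892678-48892764, + strand): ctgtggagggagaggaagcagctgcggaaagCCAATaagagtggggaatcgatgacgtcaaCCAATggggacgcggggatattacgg
ATP5MC2 (chr12:53676084-53676175, - strand): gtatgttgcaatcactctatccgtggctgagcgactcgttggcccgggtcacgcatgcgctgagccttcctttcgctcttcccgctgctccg
NDUFC1 (chr4:139302552-139302801, - strand): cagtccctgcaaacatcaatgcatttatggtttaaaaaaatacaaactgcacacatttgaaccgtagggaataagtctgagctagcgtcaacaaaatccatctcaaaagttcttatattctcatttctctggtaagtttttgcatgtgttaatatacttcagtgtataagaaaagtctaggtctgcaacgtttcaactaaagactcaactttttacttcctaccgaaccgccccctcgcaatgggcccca
NDUFB7 (chr19:14572067-14572316, - strand): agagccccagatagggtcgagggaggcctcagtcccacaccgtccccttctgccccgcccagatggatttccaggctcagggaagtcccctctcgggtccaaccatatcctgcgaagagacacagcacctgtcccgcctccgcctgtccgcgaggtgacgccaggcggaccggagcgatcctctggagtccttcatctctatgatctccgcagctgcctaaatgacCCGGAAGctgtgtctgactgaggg
NDUFA4L2 (chr12:57240763-57241012, - strand): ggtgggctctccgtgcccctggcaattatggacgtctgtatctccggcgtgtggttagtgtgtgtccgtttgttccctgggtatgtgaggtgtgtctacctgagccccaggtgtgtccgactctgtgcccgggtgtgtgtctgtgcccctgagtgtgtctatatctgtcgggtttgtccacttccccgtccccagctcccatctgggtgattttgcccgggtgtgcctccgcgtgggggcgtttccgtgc
The bases shown for UQCR11 held 2 ETS matches and 1 NRF1 match, those for UQCRFS1 1 NRF1 match and those for NDUFB7 1 ETS match. ATP5MC1, which fell furthest of the c-ring genes, held 2 CCAAT matches, and the bases shown for ATP5MC2, NDUFS1, NDUFC1 and NDUFA4L2 held no NRF1, ETS or CCAAT match. For NDUFS1, UQCR11, UQCRFS1, ATP5MC1 and ATP5MC2 the bases shown are only part of those searched, so the matches given for them may not be all.

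Genes that build and serve the complexes were counted next, from lists drawn up by name. At 4 h of i-BET858 the assembly factors had 2 called higher and 9 lower of 51, the mitochondrial ribosome, which translates the mitochondrial members, 1 and 27 of 76, mitochondrial DNA maintenance and transcription 1 and 7 of 18, and mitochondrial RNA processing 0 and 6 of 19. Of all genes 14.5% were higher and 16.3% lower. The share of assembly factors called lower was close to that of all genes. The median was -0.30 for the mitochondrial ribosome. Under total library size the ribosome had 0 higher and 36 lower and the assembly factors 1 and 13, against the 10.2% and 21.6% of all genes. With i-BET151 at 4 h the same lists had 1 higher and 5 lower, 0 and 4, 0 and 3, and 0 and 3, against 7.81% and 8.43% of all genes. With the replicate block the mitochondrial ribosome had 1 higher and 22 lower, against 15.6% and 17%. TACO1, a translational activator of MT-CO1, went from 60.4, 48.9 and 46.4 CPM in DMSO to 13.9, 10.6 and 13.9 CPM with i-BET858 and 19.98, 22.5 and 19.99 CPM with i-BET151 (log2 fold change -2.02 ± 0.16 (SE), edgeR adjusted p = 7.16e-06, and log2 fold change -1.32 ± 0.16 (SE), edgeR adjusted p = 0.000284). The mitochondrial poly(A) polymerase MTPAP went from 35.3, 30.5 and 34.2 CPM in DMSO to 9.10, 8.01 and 7.67 CPM under i-BET858 and 15.97, 15.7 and 15.02 CPM under i-BET151 (log2 fold change -2.01 ± 0.14 (SE), edgeR adjusted p = 3.23e-06, and log2 fold change -1.10 ± 0.14 (SE), edgeR adjusted p = 0.000381). TWNK, the helicase of mitochondrial DNA, went from 157, 144 and 148 CPM in DMSO to 54.9, 59.97 and 53.7 CPM under i-BET858 and 81.2, 91.3 and 90.5 CPM under i-BET151 (-1.41 and -0.77, both called). The mitochondrial RNA polymerase POLRMT was at -0.68 with i-BET858 (adjusted p = 0.0206, edgeR) and its partner TFAM at -0.22 (adjusted p = 0.169). In each of TACO1, MTPAP and TWNK every drug library lay below every DMSO library at 4 h.

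Among the nuclear regulators of respiratory genes, 6 of 16 were called lower and 2 higher at 4 h of i-BET858, where 16.3% and 14.5% of all genes were. GABPA, the ETS subunit of nuclear respiratory factor GABP, went from 75.5, 63.9 and 55.04 CPM to 27.3, 23.8 and 17.3 CPM with i-BET858 and 42.8, 32.2 and 35.7 CPM with i-BET151 (log2 fold change -1.51 ± 0.19 (SE), edgeR adjusted p = 0.000154, and log2 fold change -0.81 ± 0.19 (SE), edgeR adjusted p = 0.0134). At 24 h it lay at 55.1, 53.9 and 50.04 CPM in DMSO, 51.1, 43.1 and 39.7 CPM under i-BET858 and 49.8, 61.2 and 38.1 CPM under i-BET151, with no call, and the change between the times was called for i-BET858 (log2 fold change 1.30 ± 0.26 (SE), edgeR adjusted p = 0.00133). GABPA and the member ATP5PF share exon bases on opposite strands. The coactivator PPARGC1B and the factor SP1 were at -1.60 and -1.60 with i-BET858 at 4 h, both called, and NRF1 was at 0.36 (adjusted p = 0.0476, edgeR), a call lost under total library size. PPARGC1A, the best known inducer of mitochondrial genes, was not called, at -0.12 and 0.30 with i-BET858 at 4 and 24 h, and ESRRA was called lower at 24 h with both drugs (-0.47 and -0.43).

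At 24 h of i-BET858 the mitochondrial ribosome had 2 called higher and 38 lower of 76, the assembly factors 8 and 20 of 51, RNA processing 0 and 8 of 19, and DNA maintenance and transcription 2 and 4 of 18. Of all genes 20.5% were higher and 21.3% lower. The share of DNA maintenance genes called lower was close to that of all genes. In the ribosome list MRPL11, a protein of the large subunit, went from 113, 119 and 127 CPM in DMSO to 34.3, 43.9 and 32.2 CPM under i-BET858 and 57.6, 50.5 and 45.5 CPM under i-BET151 (log2 fold change -1.70 ± 0.14 (SE), edgeR adjusted p = 6.36e-06, and log2 fold change -1.23 ± 0.14 (SE), edgeR adjusted p = 8.2e-05), and MRPL15 and MRPS35 were at -1.21 and -1.03 with i-BET858. Among assembly factors, COA7 and COX10, which serve complex IV, were at -1.56 and -1.10 under i-BET858 and -1.25 and -0.87 under i-BET151, all called. Within DNA maintenance, POLG, chosen after its values were seen, the polymerase that copies mitochondrial DNA, went the other way, from 46.9, 45.4 and 36.1 CPM in DMSO to 134, 133 and 129 CPM with i-BET858 and 97.8, 96.7 and 97.1 CPM with i-BET151 (log2 fold change 1.62 ± 0.11 (SE), edgeR adjusted p = 2.03e-06, and log2 fold change 1.18 ± 0.11 (SE), edgeR adjusted p = 2.58e-05). PRORP, the nuclease that cuts tRNAs out of mitochondrial transcripts, went from 6.29, 6.41 and 5.66 CPM in DMSO to 1.20, 1.71 and 1.27 CPM under i-BET858 and 2.04, 1.69 and 1.94 CPM under i-BET151 (-2.14 and -1.69, both called). Of the mobile and outlying subunits that the symbols miss, cytochrome c (CYCS) was higher with i-BET858 at 4 h, at 502, 498 and 424 against 308, 297 and 280.1 CPM (log2 fold change 0.69 ± 0.10 (SE), edgeR adjusted p = 0.000382), and at 24 h at 371, 408 and 394 against 288, 321 and 319 CPM (0.34, a call lost under total library size), whereas cytochrome c1 (CYC1) was at -0.57 and -0.53 at 24 h, both called.

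The neighbouring pathways of ATP supply are read against the same shares of all genes. Glycolysis had 8 called higher and 0 lower of 20 at 4 h of i-BET858, where 14.5% and 16.3% of all genes were, and 2 higher and 5 lower at 24 h, where 20.5% and 21.3% were. With i-BET151 it had 0 and 0 at 4 h (2 at an unadjusted p under 0.05, edgeR, where 29.5% of all genes were) and 3 and 1 at 24 h, where 17.2% and 16.6% were. With the replicate block these were 13 and 0, 5 and 7, 4 and 0, and 5 and 6. The shares of all genes were then 22.3% and 23%, 25.7% and 26.3%, 15.6% and 17%, and 23.2% and 22.6%. The lactate exporter SLC16A3 (1.20), the triose-phosphate isomerase TPI1 (0.49) and pyruvate kinase PKM (0.46) were among those called higher at 4 h. The tricarboxylic acid cycle had 3 called higher and 1 lower of 18 at 4 h and 5 and 4 at 24 h with i-BET858, close to the shares of all genes other than the 1 lower at 4 h. Its OGDH, which makes succinyl-CoA, was called higher with both drugs at both times, at 0.83 and 0.70 at 4 h and 1.06 and 0.96 at 24 h.

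**Figure D5:**
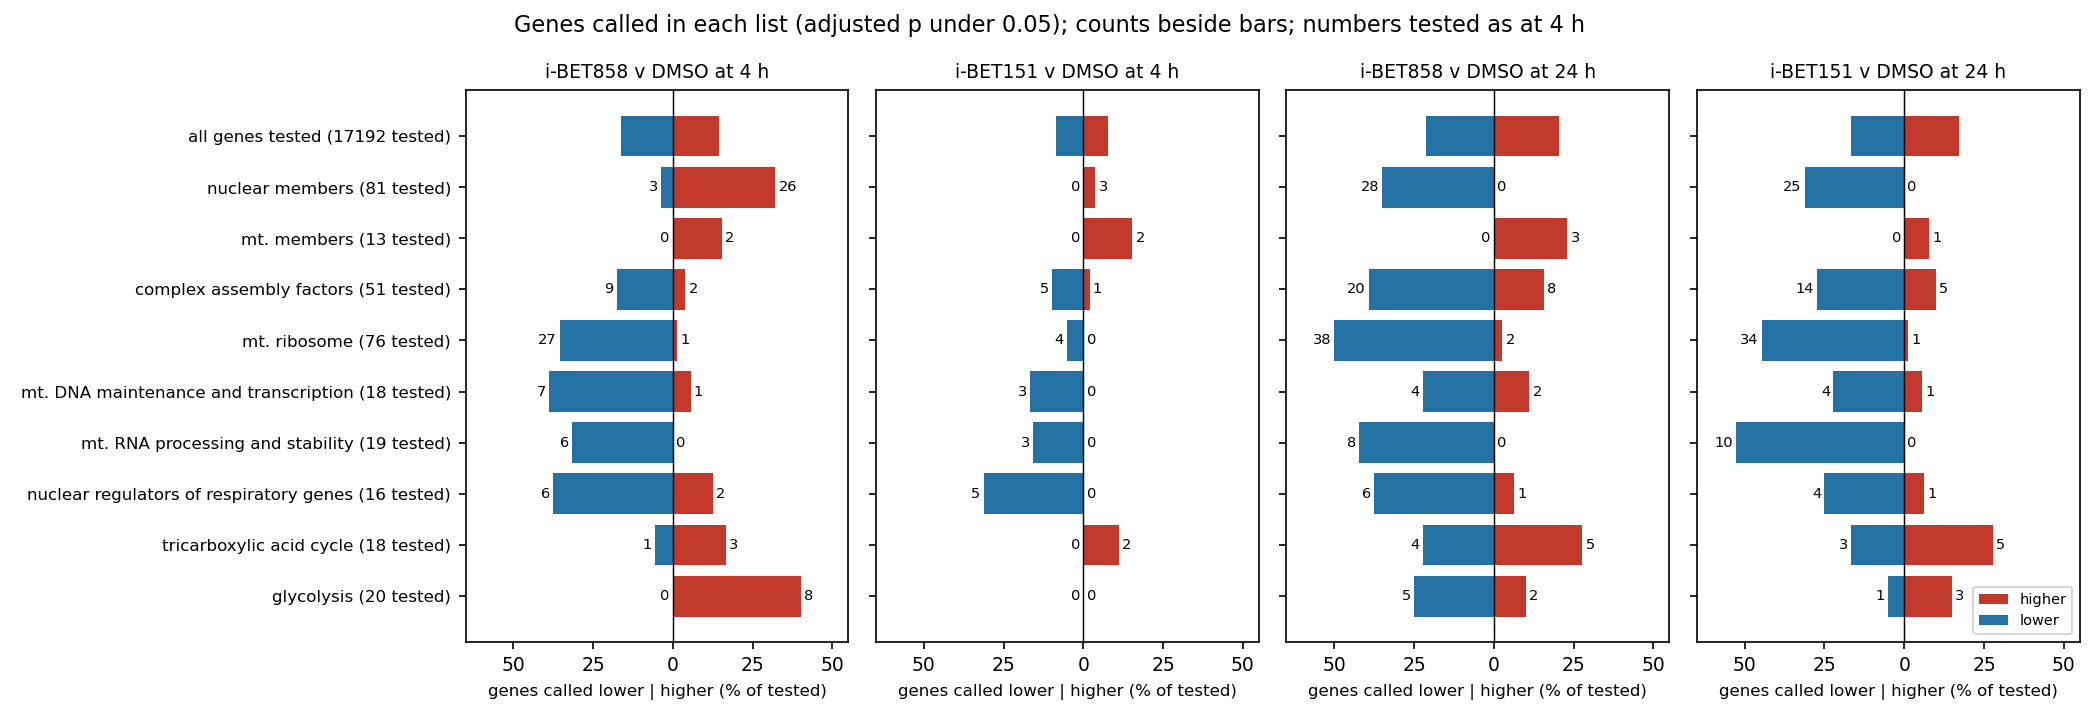
Genes called lower (left of 0) and higher (right of 0) as a percentage of those tested in each list and comparison, with counts beside the bars and the share over all genes in the top row. With i-BET858 at 4 h the nuclear members had 26 higher and 3 lower whilst the mitochondrial ribosome had 1 and 27, and at 24 h the calls of both were mainly falls, 28 and 38.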

How the data were processed

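RNA-seq of 18 OVCAR-3 libraries was analysed from gene-level read counts deposited by the authors as 2 tables, whose names give the time point of the columns. Per the study's methods and processing notes, polyadenylated RNA was sequenced as paired reads, aligned to GRCh38 with STAR, which also counted reads per gene, and tested with DESeq2. Versions are not given in the sources used here. No column of per-sample values was left unused. Gene types and positions came from GENCODE 44, which matched 58472 genes (99.4%).

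Each time point had its own fit of 9 libraries with edgeR 4.0.16 (quasi-likelihood test, TMM normalisation, filterByExpr, R 4.3.3), and drug-by-time changes in a fit of all 18. P-values were adjusted by Benjamini-Hochberg over all genes tested, and called below 0.05. CPM are TMM-scaled, separately for each time point, and an upper limit of 3 counts for a gene at 0 was 0.0648 to 0.110 CPM, which covers counting error only. The code was tested on simulated data. Alternatives were DESeq2 1.42.0 and its size factors, total library size, other count filters, other fits, fold thresholds of 1.5 and 2, mitochondrial genes left out before normalisation, replicates 1 and 2 only, a replicate block and each library left out in turn. Replicate numbers were taken to pair libraries, as deviations from group means correlated over all 9 same-numbered pairs at each time (0.142 to 0.367 at 4 h, 0.159 to 0.352 at 24 h). Pairs with different numbers ranged from -0.339 to 0.231 at 4 h and from -0.329 to 0.326 at 24 h. The highest of these exceeded the lowest same-numbered values. Their medians were -0.224 and -0.245, against 0.302 and 0.284 for same-numbered pairs. Deviations sum to 0 in each group, so the negative medians add no support. An offset shared by the libraries of replicate 3 could give the same pattern. Pairing by number and such an offset cannot be told apart here. No 2 replicates agreed within sampling noise (chi-square per degree of freedom 4.19 to 66.1 over 18 pairs).

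Genes named were 7 mitochondrial genes, the SDH genes, ATP5IF1, the tissue isoforms with their partners, the 5 called nuclear members (average log2 CPM 1 or more) that rose or fell furthest in each drug comparison, up to 5 a direction for the change between times and for the drug difference, up to 3 called genes of each other list, and 6 fixed regulators. MT-ND2, MT-CO2, MT-ND5, MT-ND3, NDUFA5, UQCRH and POLG were named after their values were seen, as were the low-count subunits and the 9 genes listed as called at both times. The members and lists were chosen with earlier results of these data known.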

Additional observations from a re-analysis of the deposited data

Results flagged for a closer look

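The drug effect differed between 4 and 24 h, by a test of the difference itself (drug-by-time interaction, edgeR quasi-likelihood test, Benjamini-Hochberg adjustment), in 38 nuclear members for i-BET858 and in 23 for i-BET151, all of them lower at 24 h relative to 4 h. Of all genes 12.6% and 6.82% were called lower. With each library left out in turn the nuclear counts were 29 to 39 and 11 to 27, where 9.97% to 13.3% and 4.42% to 7.3% of all genes were lower.

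For i-BET858 the change on the log2 scale was -1.74 for ATP5MC1 and -1.03 for ATP5MC2 of the c-ring, -0.84 for ATP5MF, -0.36 for ATP5F1B and -0.88 for the inhibitor ATP5IF1. In genes named for complex I it was -2.58 for NDUFA4L2, a relative of NDUFA4, -1.46 for NDUFC1, -1.20 for NDUFB7, -1.14 for NDUFA9 and -0.92 for NDUFS8. In complex III it was -0.67 for UQCRH and -0.83 for its copy UQCRHL. In complex IV it was -0.80 for COX4I1, -0.71 for COX6B1, -0.68 for NDUFA4 and -0.50 for COX7A2. Of these changes, that of NDUFA9 was not called in 8 of the alternative settings, those of ATP5F1B and COX7A2 in 5 each and that of UQCRHL in 1, and NDUFA9, ATP5F1B and COX7A2 were lost without DMSO 24 h replicate 3, among others.

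For i-BET151 the change was -1.07 for ATP5MC1, -0.67 for ATP5MC2, -0.75 for ATP5IF1, -2.41 for NDUFA4L2, -1.26 for NDUFC1, -0.80 for NDUFB7, -0.73 for NDUFS8, -0.62 for UQCRH, -0.69 for COX4I1, -0.61 for COX6B1 and -0.56 for NDUFA4. The change of NDUFA4 was not called in 10 settings, that of NDUFS8 in 5, that of ATP5MC2 in 3 and that of COX6B1 in 1, and NDUFA4, NDUFS8 and ATP5MC2 were lost without DMSO 24 h replicate 3, among others.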

How the results depend on the processing

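Sign changes and lost calls were counted over the named members that were run under the alternatives. Genes of the other lists were run only under total library size, the replicate block and replicates 1 and 2. Among those members, no log2 fold change that was called, in the fit reported or under an alternative, changed sign. With no call on either side, 116 of 365 changed sign under at least 1 alternative. Under total library size the nuclear calls of i-BET858 at 4 h turned from 26 higher and 3 lower to 4 higher and 5 lower. Of 81 calls of the named members run, 40 held under all alternatives and 39 were lost without at least 1 library. With i-BET858 at 4 h (29 nuclear, 2 mitochondrial calls), a fold of 1.5 left 4 and 0, a fold of 2 left 0 and 0, no filter gave 19 and 11, total library size 9 and 0, replicates 1 and 2 only gave 9 mitochondrial, and the fit of all 18 libraries and DESeq2 gave 4 mitochondrial calls each. Of all genes 8.2% were called higher and 9.14% lower without filter, and 10.2% and 21.6% under total library size. With replicates 1 and 2 only 20.3% and 21.5% were, and 14.7% and 17.3% in the fit of all 18. No share of all genes is given here for a fold of 1.5 or for DESeq2, so those counts have no background. With i-BET151 at 4 h (3 and 2), folds of 1.5 and 2 left 0 nuclear and a fold of 2 left 0 mitochondrial, the fit of all 18 gave 7 and 4, DESeq2 11 nuclear, no filter 0 and 12, replicates 1 and 2 only 8 and 10, and the 2 groups alone or total library size 1 mitochondrial. Of all genes 8.74% were higher and 10.3% lower in the fit of all 18, and 4.89% and 5.13% without filter. With replicates 1 and 2 only 12.4% and 13.5% were. With the 2 groups alone 8.41% and 9.43% were, and 6.62% and 10.2% under total library size. With i-BET858 at 24 h (28 and 3), a fold of 1.5 left 12 and 0, a fold of 2 left 4 and 0, no filter gave 6 mitochondrial, replicates 1 and 2 only 43 nuclear, and the fit of all 18 or total library size 1 mitochondrial. Of all genes 12% were higher and 11.4% lower without filter, and 29.8% and 31% with replicates 1 and 2 only. In the fit of all 18 19.7% and 19.2% were, and 17.1% and 24.1% under total library size. With i-BET151 at 24 h (25 and 1), a fold of 1.5 left 6 and 0, a fold of 2 left 2 and 0, the fit of all 18 gave 0 mitochondrial, and no filter or replicates 1 and 2 only 3 mitochondrial. Of all genes 16% were higher and 15.8% lower in the fit of all 18. Without filter 9.66% and 9.49% were, and 26% and 28.1% with replicates 1 and 2 only. For the change between times (38 and 0 for i-BET858, 23 and 0 for i-BET151), a fold of 2 left 6 and 3 nuclear, at least 10 counts in every library or replicates 1 and 2 only gave 1 mitochondrial for i-BET858, and no filter gave 2 and replicates 1 and 2 only 3 mitochondrial for i-BET151. For i-BET858 17.8% of all genes were higher and 18.8% lower at 10 counts, and 20% and 20.5% with replicates 1 and 2 only. For i-BET151 3.77% and 3.63% were without filter, and 12.3% and 13.9% with replicates 1 and 2 only. Between the drugs at 24 h, replicates 1 and 2 only gave 2 nuclear calls, where 3.93% of all genes were higher and 3.36% lower. The cause of these shifts was not tested.

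With the replicate block, which pairs libraries by number, nuclear and mitochondrial calls were 51 and 12 for i-BET858 and 29 and 12 for i-BET151 at 4 h, 39 and 6 and 38 and 4 at 24 h, 53 and 4 and 38 and 3 for the change between times, and 1 nuclear between the drugs at each time. Leaving out each library in turn gave 12 to 32 nuclear and 1 to 6 mitochondrial calls for i-BET858 at 4 h, 0 to 4 and 0 to 3 for i-BET151 at 4 h, 18 to 32 and 1 to 5 for i-BET858 at 24 h, 15 to 23 and 0 to 3 for i-BET151 at 24 h, 29 to 39 and 0 to 1 for the i-BET858 change, 11 to 27 and 0 to 1 for the i-BET151 change, and 0 between the drugs. Of all genes 10.4% to 16% were then higher and 12.5% to 17.7% lower for i-BET858 at 4 h. For i-BET151 at 4 h these shares were 4.93% to 8.66% and 4.47% to 9.61%. At 24 h they were 16% to 22.1% and 16.6% to 22.9% for i-BET858, and 12.3% to 17.9% and 11.4% to 17.3% for i-BET151. For the changes 9.97% to 13.3% and 4.42% to 7.3% were lower. A gene at 0 in a library could lie at up to 0.0648 to 0.110 CPM at these depths.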
